A study of Mus musculus with 8 samples.

Results

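CpG-poor megabases are the stretches of the autosomes in which reduced representation bisulfite sequencing (RRBS) listed few cytosines. They were chosen by dividing chromosomes 1 to 19 into fixed bins of 1 Mb and keeping those with 50 to 199 listed cytosines. This gave 329 of 2410 autosomal megabases with a listed cytosine (13.7%), which held 48217 of 2298998 autosomal cytosines (2.10%). The choice used only how many cytosines were listed, not how their methylation differed. They were compared with 830 megabases of 1000 or more listed cytosines, called cytosine-rich here.

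RRBS cuts DNA with MspI at the sequence CCGG, reads size-selected fragments after bisulfite conversion, and so samples CpG-rich DNA most. The cells were NIH3T3, an immortalised mouse embryonic fibroblast line. Control clones 2 and 3 carried the empty p3xFLAG-CMV-10 vector, and clones 10 and 12 carried the same vector with 14-3-3ε, a protein that binds phosphorylated partners, behind its FLAG tag. All 4 were single-colony clones picked during selection with G418 at 800 µg/mL and grown in 10% serum, and each was measured by RRBS and by RNA-seq. For each assay a single table of the authors' between-group results was used. It has no value per clone, so the spread between clones is not shown for any result, and differences among clones of 1 group cannot be told apart from an effect of 14-3-3ε. Neither table states its direction. Positive values were read as higher in 14-3-3ε clones, and every "higher" and "lower" here rests on that reading. The mouse gene for 14-3-3ε, Ywhae, did not check it: the authors' deposited table gives it a log2 fold change of -0.03 (adjusted p 0.942). General markers of fibroblasts were high in the authors' deposited table, which cannot by itself identify the line. The 8 fibroblast markers had mean normalized counts from 4843 for Pdgfrb to 424650 for Fn1, and Epcam, Cdh1, Pecam1, Cdh5, Ptprc and Tubb3 stood at 10.2 or less. Of the 8, 4 rose, in log2 units: Col1a1 by 0.98, Col1a2 by 0.89, Pdgfra by 1.70 and Pdgfrb by 1.36 in the authors' deposited table. Map2, a marker of neurons, stood at 781 and fell by 1.36 on the log2 scale (adjusted p 0.00564), and Krt8, one of epithelia, stood at 51.1, per the authors' deposited table.

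Mammalian genomes are built of gene-rich, CpG-rich stretches that replicate early and gene-poor, CpG-poor stretches that tend to replicate late and to lie against the nuclear lamina. DNA methylation is copied to the new strand by Dnmt1 with its partner Uhrf1 after each round of replication. In many cultured and tumour cells the late, lamina-bound stretches keep less methylation than the rest and are then called partially methylated domains. Replication timing, lamina contact and the methylation level itself were not measured in these files, which give only the difference between clone groups.

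The gene content of the 329 megabases fitted the description gene-poor as a class, though not in each of them. They held on average 2.47 protein-coding genes per megabase in the RefSeq annotation of GRCm38.p6, against 15.8 in cytosine-rich megabases. The medians were 1 and 13, and single CpG-poor megabases held up to 49. No protein-coding gene had its midpoint in 160 of the 329 (48.6%), and in none of the 830 was this so. Among all 2736 genes placed in the 329, pseudogenes were the most frequent class with 1015, followed by 814 protein-coding genes and 524 long non-coding RNA genes. Chromosomes 14 and 1 held the most of these megabases, 37 and 36, and chromosome 19 the fewest, 4. They came singly in 131 cases, and 118 lay in unbroken runs of 3 or more. The longest run was 7 Mb, chr14:80000001-87000000.

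Promoter sequence differed in the same sense. In windows of 300 bases around annotated starts, from RefSeq of build GRCm38.p6, the median GC content was 42% over 1220 windows of CpG-poor megabases and 56% over 19360 of cytosine-rich ones. The median number of CpGs, the letters CG, was 2 against 11. The MspI site CCGG, which reads the same on both strands and contains a CG, was present in 21.0% of the 1220 windows, in 61.5% of the 19360 and in 53.5% of all 31365 autosomal windows. Only 66 of the 1220 windows held a listed cytosine, so most promoters of these megabases were not read by the assay. The RefSeq base was C on the listed strand at each of the 179281 distinct listed cytosines in windows of both classes, so the coordinates of the table and of this annotation match.

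The sequences of 4 promoters give examples with and without listed cytosines from these megabases. Each is the 250 bases before an annotated start on the gene's own strand, from RefSeq in the coordinates of mm10. They were chosen after their values were seen: of the 66 windows Pcdh9 had the most cytosines called lower, and Pcdh17 shared the most called higher with 2 other windows, 1 of which overlaps it. Nox4 is an example with many listed cytosines and few calls, and Hgf had a call in RNA and no listed cytosine. Pcdh9 and Pcdh17 encode protocadherins, which are adhesion proteins of neurons, Nox4 encodes an NADPH oxidase and Hgf the hepatocyte growth factor. For Pcdh9, Pcdh17 and Nox4 the capitals mark CpGs with a cytosine called at q under 0.05 in either direction on either strand. For Hgf they mark each CpG.

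Pcdh9, chr14:93890680-93890929, minus strand: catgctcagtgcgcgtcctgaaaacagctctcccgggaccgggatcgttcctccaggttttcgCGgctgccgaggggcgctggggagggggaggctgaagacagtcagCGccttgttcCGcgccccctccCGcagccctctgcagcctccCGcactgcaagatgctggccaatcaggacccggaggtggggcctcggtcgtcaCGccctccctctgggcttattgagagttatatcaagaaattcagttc
Pcdh17, chr14:84443313-84443562, plus strand: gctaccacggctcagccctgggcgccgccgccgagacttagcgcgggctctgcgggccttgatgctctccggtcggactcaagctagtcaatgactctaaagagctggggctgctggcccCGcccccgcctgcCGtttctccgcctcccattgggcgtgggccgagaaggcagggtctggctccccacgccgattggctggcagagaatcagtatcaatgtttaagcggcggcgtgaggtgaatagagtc
Nox4, chr7:87246399-87246648, plus strand: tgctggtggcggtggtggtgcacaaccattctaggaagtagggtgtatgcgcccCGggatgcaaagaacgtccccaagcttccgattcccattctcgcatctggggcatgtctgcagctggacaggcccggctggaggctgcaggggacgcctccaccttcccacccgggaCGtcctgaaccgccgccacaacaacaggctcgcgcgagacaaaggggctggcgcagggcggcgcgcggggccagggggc
Hgf, chr5:16553245-16553494, plus strand: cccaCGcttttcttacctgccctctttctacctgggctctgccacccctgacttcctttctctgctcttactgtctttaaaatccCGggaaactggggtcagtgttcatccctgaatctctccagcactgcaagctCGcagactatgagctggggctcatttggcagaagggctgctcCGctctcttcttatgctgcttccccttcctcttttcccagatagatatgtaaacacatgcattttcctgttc

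The first 3 are CpG-dense stretches in poor surroundings, with 18, 21 and 20 CpGs in 250 bases, while the Hgf promoter has 4. The MspI site CCGG occurs 3 times each in the Pcdh9 and Nox4 sequences and 1 time each in those of Pcdh17 and Hgf. Pcdh17 had 16 listed cytosines with that 1 site, and why Hgf had none was not tested. The methylation of the first 3 is described after that of the megabases as wholes.

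CpG-poor megabases had lower methylation in 14-3-3ε clones, by an amount that was small but larger than in cytosine-rich megabases. When the differences of the authors' deposited table were averaged, the mean of a megabase ran from -5.27 to 1.52 percentage points with a median of -1.53, and its mean was -1.56 ± 1.35 (SD, n = 329 megabases). In cytosine-rich megabases it ran from -2.89 to 0.93 with a median of -0.35 and a mean of -0.380 ± 0.415 (SD, n = 830 megabases). The means of the classes differed by -1.18 points, a ratio of 4.11. The classes overlap: 252 of 329 CpG-poor megabases (76.6%) lay below the 25th percentile of cytosine-rich ones, -0.61 points, 55 lay below the lowest of them and 10 above the highest. Megabases are not replicates of a clone, so these SDs describe the spread along the genome and no test between clone groups could be made.

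The share of megabases below 0 was alike in both classes and did not separate them. It was 282 of 329 (85.7%) in CpG-poor and 699 of 830 (84.2%) in cytosine-rich megabases. What differed was how far below 0 they lay. Intermediate megabases fell in between, with a mean of -1.05 ± 1.09 points (SD, n = 619 megabases) at 200 to 499 listed cytosines and -0.571 ± 0.631 (SD, n = 620 megabases) at 500 to 999. At the edges of the rule, the 39 megabases with 190 to 199 listed cytosines averaged -1.87 points and the 31 with 200 to 209 averaged -1.52. At the lower edge, the 3 with 50 to 59 averaged -0.678 and the 4 with 40 to 49 averaged -1.59. Within the 329 the mean was lowest, -1.88 points, in the 32 megabases with fewer than 100 listed cytosines. It was -1.53 in 135 with at least 100 and fewer than 150, and -1.52 in 162 with at least 150. The SDs within these sets were 1.42, 1.46 and 1.23 points, and no test between the sets was made.

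**Figure D1:**
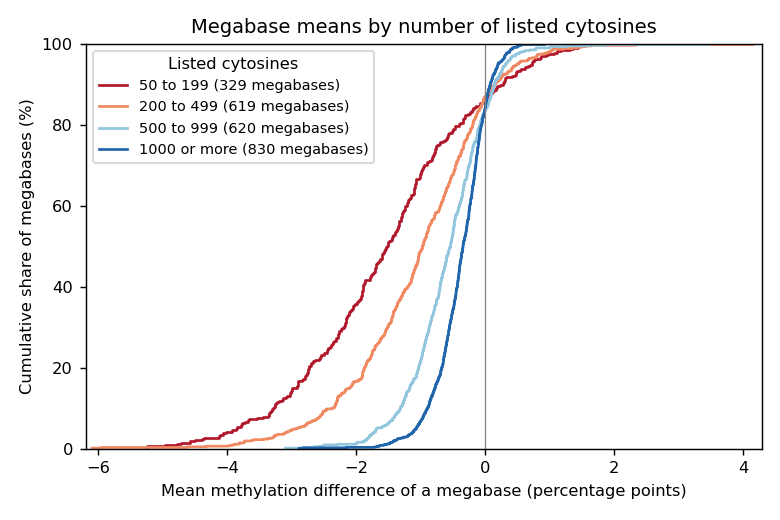
Cumulative share of autosomal megabases (vertical axis, %) against the mean methylation difference of a megabase (horizontal axis, percentage points, 14-3-3ε minus control in the assumed direction), for 4 classes by number of listed cytosines. The curve of the 329 CpG-poor megabases lies farthest left, with a median of -1.53 points, and that of the 830 cytosine-rich ones is steep around a median of -0.35. All curves cross 0 at about the same height.

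The mean of CpG-poor megabases was below that of cytosine-rich ones on each of the 19 autosomes. It ran from -2.49 ± 1.00 points on chromosome 17 (SD, n = 6 megabases) and -2.19 ± 1.73 on chromosome 6 (SD, n = 19 megabases) to -0.986 ± 1.37 on chromosome 10 (SD, n = 10 megabases). Cytosine-rich megabases ranged only from -0.507 points on chromosome 13 to -0.184 on chromosome 3. The gap was widest on chromosome 17, at -2.10 points, and narrowest on chromosome 7, at -0.581. All 6 CpG-poor megabases of each of chromosomes 9, 13 and 17 had a mean below 0, as had 28 of 37 on chromosome 14.

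**Figure D2:**
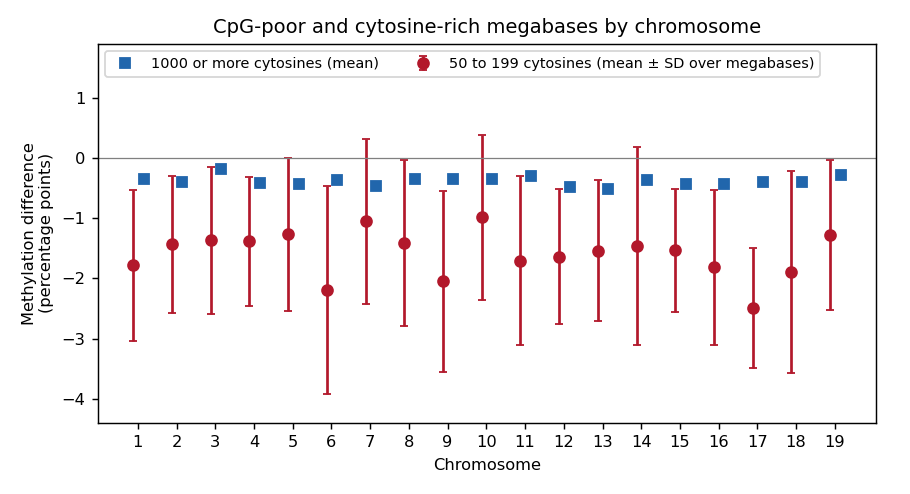
Mean methylation difference (vertical axis, percentage points) by autosome (horizontal axis): circles with bars are the mean ± SD over CpG-poor megabases, and squares the mean over cytosine-rich megabases. The circle lies below the square on all 19 chromosomes, and many bars reach up to or past the square.

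Single cytosines differed more in both directions in CpG-poor than in cytosine-rich megabases, and farther below 0 than above it. The mean size of a difference, without its sign, was 7.25 points against 4.66. The 5th and 95th percentiles were -19.3 and 14.5 points in CpG-poor megabases, against -13.1 and 11.5 in cytosine-rich ones. The median difference of the 48217 cytosines was -0.82 points in the authors' deposited table, with 25th and 75th percentiles of -6.25 and 3.45, and 54.7% were below 0 against 42.8% above. In cytosine-rich megabases the median was 0, the percentiles were -2.64 and 2.13, and 46.6% were below 0 against 43.8% above. A difference of exactly 0, which sites with the same state in both groups give, was listed for 2.47% of cytosines in CpG-poor and 9.63% in cytosine-rich megabases. Without these cytosines the mean over megabases was -1.60 points in the former and -0.417 in the latter. Without all called cytosines the mean over cytosines was -1.01 points in CpG-poor megabases and -0.205 in cytosine-rich ones. Since differences of like size were called at unequal rates in the classes, as given below, these remainders are not alike in make-up.

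By the authors' q under 0.05, 2052 cytosines of CpG-poor megabases were lower (4.26%) and 841 higher (1.74%). Over all cytosines listed, 2.83% were called lower and 1.92% higher. Lower calls outnumbered higher ones 2.44 to 1 here, against 1.38 to 1 in cytosine-rich megabases, where 2.70% were lower and 1.96% higher. If reads were pooled within groups, as may be in such tables, q measures read sampling and not clones. The median called difference was -21.7 points for lower and 20.7 for higher cytosines of CpG-poor megabases in the authors' deposited table. Lower calls were in the majority in 257 of the 329 megabases, higher calls in 43, the numbers were equal in 27, and 2 had no call. The share with mostly lower calls, 78.1%, was not above that of cytosine-rich megabases, 79.9% (663 of 830), and the share with mostly higher calls was 13.1% against 18.1%. At most 23 cytosines were called in 1 megabase.

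Differences of like size were called less often in CpG-poor megabases. Of differences above 10 and up to 15 points in size, 7.66% were called there and 13.0% in cytosine-rich megabases. Of those above 20 and up to 30 points the shares were 42.7% and 53.1%. The coverage behind each cytosine is not in the file, and its part in the called shares was not tested. The share of cytosines called lower was thus higher in CpG-poor megabases although a difference of a given size was called there less often.

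Local surroundings differed strongly between the classes. This is in part built into the rule, since classes and local density both count listed cytosines. Within 100 bp on either side and counting itself, a cytosine had at most 4 listed cytosines in 46.3% of cases in CpG-poor and 17.7% in cytosine-rich megabases, and 21 or more in 3.00% against 32.3%. The gap was present at each density. At up to 4 listed cytosines the mean was -1.14 points in CpG-poor and -0.487 in cytosine-rich megabases, and at 5 to 10 it was -1.93 against -0.468. At 11 to 20 it was -1.88 against -0.340, and at 21 or more -1.67 against -0.200. This last class held 1445 cytosines of 64 clusters in 62 CpG-poor megabases, with 52 called lower and 4 higher. When cytosine-rich megabases were weighted to the local density of CpG-poor ones, their mean over cytosines became -0.451 points, against -1.55 in CpG-poor ones, so the gap was -1.10.

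**Figure D3:**
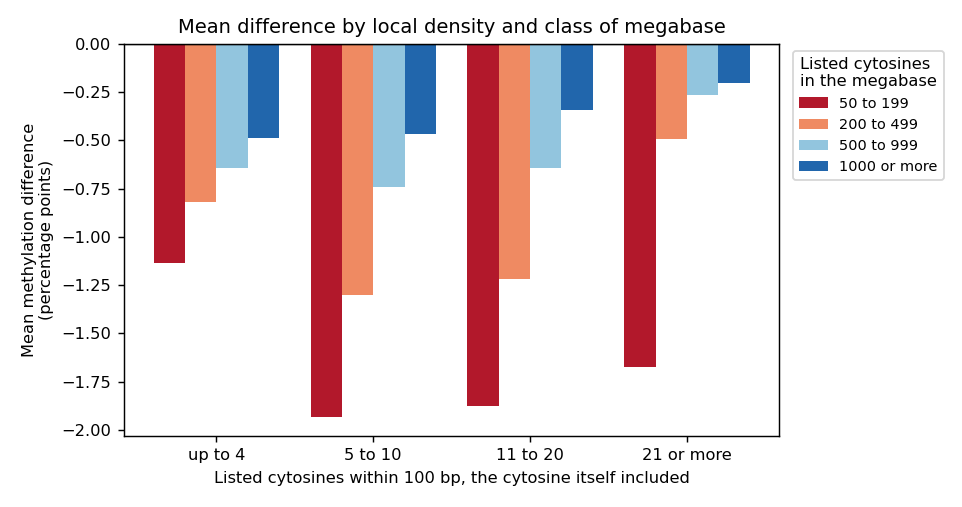
Mean methylation difference over cytosines (vertical axis, percentage points) by number of listed cytosines within 100 bp (horizontal axis), with a bar for each class of megabase. In all 4 density classes the bar of CpG-poor megabases is the longest, from -1.14 to -1.93 points, and that of cytosine-rich megabases the shortest, from -0.200 to -0.487.

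A single megabase was measured coarsely. Listed cytosines no more than 200 bp apart were joined into clusters, and a CpG-poor megabase had a median of 25 clusters (7 to 41), against 124 in cytosine-rich ones. The standard error of a megabase mean over its clusters had a median of 1.24 points, nearly as large as the SD between megabases. Means over the odd- and the even-numbered clusters of the same megabase correlated at r = 0.10 (Spearman 0.07) over the 329, a description of sites that share clones and libraries. Neighbouring CpG-poor megabases correlated at r = 0.06 over 127 pairs. With each cluster counted once, the mean of CpG-poor megabases was -1.21 points and the gap to cytosine-rich ones shrank to -0.757. The order of single megabases was thus poorly determined.

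The 6 lowest megabases are given with this limit. They were chr16:68000001-69000000 at -5.27 points over 131 cytosines, chr6:132000001-133000000 at -5.25 over 140 and chr1:113000001-114000000 at -4.96 over 126, averaged from the authors' deposited table. Next came chr9:33000001-34000000 at -4.78 over 120 cytosines, chr18:28000001-29000000 at -4.73 over 183 and chr6:62000001-63000000 at -4.58 over 100. No protein-coding gene overlaps those on chromosomes 16, 1, 9 and 18, and the last one overlaps Ccser1, a long gene. In the one at chr6:132000001-133000000, which holds a cluster of Tas2r bitter taste receptor genes and genes of proline-rich salivary proteins, the mean over clusters was only -1.54 ± 1.85 points (SE, n = 33 clusters), so its value depended on how sites were weighted. In the other 5 the mean over clusters lay between -5.29 and -4.03 points.

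The 6 highest ranged from 1.18 points for chr6:44000001-45000000 to 1.52 for chr3:49000001-50000000, the megabase of the protocadherin gene Pcdh18. None had a mean over clusters more than 2 standard errors above 0. Over all 329, the mean over clusters was more than 2 standard errors below 0 in 63 (19.1%) and above 0 in 2. The share below was much the same in cytosine-rich megabases, 150 of 830 (18.1%), with 1 above, so this count does not set the classes apart. Nor does it show them to be alike, since the median standard error was 1.24 points in CpG-poor and 0.451 in cytosine-rich megabases. These standard errors describe clusters that share clones, and they hold no spread between clones.

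Called cytosines also lay together. Of 3549 clusters with at least 5 listed cytosines, 126 (3.55%) had 3 or more called lower and none higher, and 21 (0.592%) had 3 or more called higher and none lower. In cytosine-rich megabases the shares were 2.89% and 1.61% of 75996 such clusters. The 4 clusters with most lower calls had 8 each. The first of these, chr13:120109372-120109621, averaged -11.2 points over 30 cytosines that ran from -45.0 to 9.37 in the authors' deposited table, and lay 30625 bp from the nearest protein-coding or long non-coding RNA gene. Those at chr5:95821353-95821912 and chr17:41652809-41653098 averaged -7.10 points over 35 and -6.33 over 28 cytosines, both outside genes. The fourth, chr1:173367131-173368015, averaged -5.87 points over 79 cytosines and overlaps both Cadm3, an adhesion gene, and Aim2, which encodes a sensor of DNA in the cytosol. The clusters with most higher calls had 4 each. That with the largest mean, 18.2 points over 6 cytosines, was chr2:81800639-81800817, 249312 bp from Zfp804a. That at chr4:39823690-39824027, in the pseudogene Gm12384, averaged 16.2 points over 14 cytosines. The others were chr12:7888055-7888381, 89248 bp from Apob, at 12.1 points over 14 cytosines, and chr3:49822471-49822585, 65088 bp from Pcdh18, at 11.6 over 14. Apob and Pcdh18 were both among the genes whose RNA rose, and whether the methylation of these clusters bears on it was not tested.

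In most of the 66 promoter windows with listed cytosines the mean was below 0. It was below 0 in 41 and above 0 in 25. Some windows overlap, so these are not separate promoters. The median was -0.684 points, against -0.0436 over 8872 windows of cytosine-rich megabases. Of the 66, 19 held a call (28.8%), of which 9 had only lower calls, 6 only higher and 4 both. In cytosine-rich megabases 1873 of the 8872 windows held a call (21.1%).

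In the Pcdh9 promoter printed above, 24 of 30 listed cytosines were below 0, 8 were called lower and 1 higher, and the mean was -11.8 points, with single values from -45.2 to 22.7 in the authors' deposited table. Counted from 1 at the 5′ end of the printed sequence, the called CpGs begin at positions 64, 109, 119, 131, 151 and 204. That at 204 is the one that was higher, and at 64, 131 and 151 both strands were called lower. The lowest mean of a window, -13.1 points over 7 cytosines with no call, was that of Robo2, a receptor of axon guidance, and the highest, 9.40 over 6 with no call, that of 1700046C09Rik. The Pcdh17 promoter differed in the other direction, with 10 of 16 listed cytosines above 0, 3 called higher at the CpGs of positions 121 and 134, and a mean of 9.83 points, or 8.09 over the 20 listed cytosines of its full 300-base window. In the Nox4 promoter 2 of 34 were called lower, at positions 55 and 172, each on 1 strand only, and the mean was -2.89 points. None of Pcdh9, Pcdh17 and Nox4 had an adjusted p in RNA-seq, with mean normalized counts of 10.0, 0.496 and 4.03 in the authors' deposited table.

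**Figure D4:**
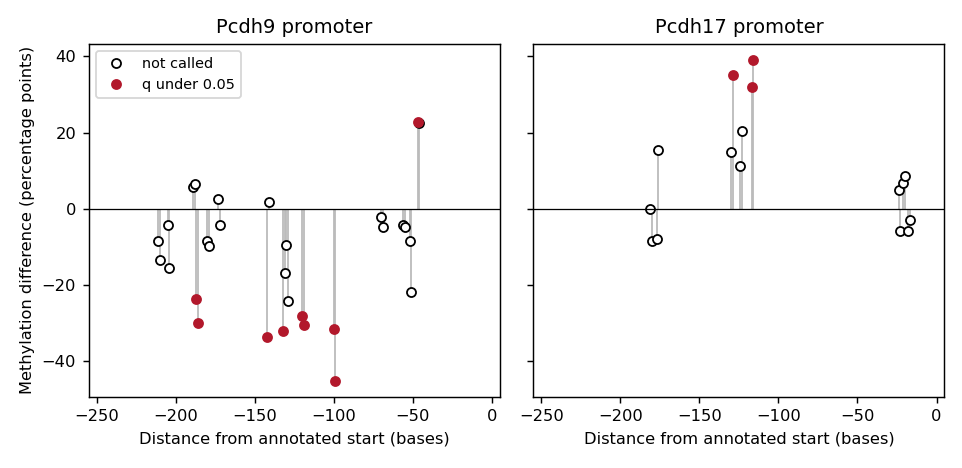
Methylation difference of each listed cytosine (vertical axis, percentage points) by distance from the annotated start (horizontal axis, bases) in the Pcdh9 and Pcdh17 promoters, both on chromosome 14. Filled points had q under 0.05 in the authors' table: 8 lower and 1 higher for Pcdh9, and 3 higher for Pcdh17.

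Few genes of CpG-poor megabases were expressed. Of 819 genes in the RNA-seq table whose midpoint lay there, 610 (74.5%) were listed at a mean normalized count of 0 and 77 (9.40%) had an adjusted p, which the authors gave down to a count of 33.1. In bulk RNA, fewer expressing cells and less RNA per cell cannot be told apart. In cytosine-rich megabases 17.7% were listed at 0 and 56.0% had an adjusted p. Methylation differences in CpG-poor megabases were smaller where genes were expressed. The 49 with a tested gene averaged -0.830 ± 1.10 points (SD, n = 49 megabases) and the other 280 averaged -1.69 ± 1.35 (SD, n = 280 megabases). Cytosines inside tested genes had a mean of -0.748 points over 2757 cytosines. Inside genes with counts under 10 it was -1.60 over 8159. Outside both kinds of gene and outside other protein-coding genes it was -1.60 over 36515. In cytosine-rich megabases the same places averaged -0.199, -0.650 and -0.460 points. In each of these places the mean of CpG-poor megabases was thus the lower one.

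Differences by gene number and surroundings were smaller and not evenly graded. CpG-poor megabases with no protein-coding gene averaged -1.68 ± 1.38 points (SD, n = 160 megabases). Those with 1 or 2 averaged -1.45 ± 1.28 (SD, n = 119 megabases), and those with 3 or more averaged -1.43 ± 1.38 (SD, n = 50 megabases). Where both neighbours also had under 200 listed cytosines the mean was -1.74 ± 1.45 (SD, n = 58 megabases). Where a neighbour had 500 or more it was -1.31 ± 1.29 (SD, n = 134 megabases). With other neighbours it was -1.72 ± 1.32 (SD, n = 134 megabases), much as where both were poor. These differences are small against the spread within each set and no test of them was made.

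Receptor gene families made up much of the gene content. CpG-poor megabases held 3.96% of autosomal protein-coding genes but 244 of 1103 olfactory receptor genes (22.1%) and 75 of 351 vomeronasal receptor genes (21.4%), which encode the receptors of smell and of pheromones. The RNA-seq data list 248 olfactory receptor genes of these megabases, of which 237 were at 0, as were 56 of 57 vomeronasal receptor genes, and none had an adjusted p. The 8 megabases with olfactory receptor genes averaged -1.36 ± 1.38 points (SD, n = 8 megabases) and the 5 with vomeronasal receptor genes -2.42 ± 1.15 (SD, n = 5 megabases). All 5 of the latter were below 0, but so were 282 of all 329 CpG-poor megabases (85.7%). Genes of neural adhesion and axon guidance, many of them very long, were also frequent, with 19 of 53 (35.8%), and their 19 megabases averaged -1.37 ± 1.26 points (SD, n = 19 megabases). Of these genes only Sema3a and Slit2 were tested, and the authors' deposited table gives them log2 fold changes of 0.20 (adjusted p 0.596) and -0.28 (adjusted p 0.391). The 4 with glutamate receptor genes, which encode subunits of excitatory neurotransmitter receptors, averaged -2.68 ± 0.665 points (SD, n = 4 megabases). Other families were rarer: 11 of 95 cadherin and protocadherin genes, 4 of 92 potassium channel genes, 9 of 62 serpin genes, 9 of 42 beta-defensin genes and 8 of 22 Ugt genes lay there, and none of the cytochrome P450 and keratin genes searched. Among the tested genes of these families, Pcdh18, Sema3a, Slit2 and Serpinb8, only Pcdh18 rose and none fell. The single megabase with beta-defensin genes, which encode antimicrobial peptides, averaged 0.729 points.

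By the authors' adjusted p under 0.05, 12 of the 77 (15.6%) were higher and 4 (5.19%) lower. Over all genes 6.15% rose and 4.74% fell. The median log2 fold change of the 77 was 0.03, and 40 of them were above 0. With bins shifted by 500 kb, 11 of 60 tested genes rose and 0 fell by the same DESeq2-type adjusted p of the authors (5 were lower at an unadjusted p under 0.05), so the falls depend on where bins begin.

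The called genes are given by the kind of product they encode, a grouping made after the calls were seen and not tested. The matrix or matrix-bound proteins come first, and the fibroblast matrix genes Col1a1 and Col1a2, which lie outside these megabases, rose as well. Tnc, the gene of the glycoprotein tenascin C at chr4:63959785-64047015, rose by 1.33 in log2 units (SE 0.35, adjusted p 0.00346), per the authors' deposited table. Vcan at chr13:89655309-89743027, the gene of the large proteoglycan versican, rose by 0.69 (SE 0.23, adjusted p 0.0352), per the authors' deposited table. Both were abundant, with mean normalized counts of 34348 for Tnc and 19147 for Vcan, per the authors' deposited table. Col11a1 at chr3:114030479-114220756, which encodes a chain of fibrillar collagen, rose by 1.14 (SE 0.37, adjusted p 0.0269), per the authors' deposited table. Its mean normalized count there was only 51.5. Col22a1 at chr15:71795795-72150979, a gene of collagen at tissue junctions, rose by 1.05 (SE 0.37, adjusted p 0.0425), per the authors' deposited table. The secreted, integrin-binding product of Edil3 comes from chr13:88821472-89323225, and the gene rose by 1.22 (SE 0.38, adjusted p 0.0206), per the authors' deposited table. Vcan and Edil3 share the megabase chr13:89000001-90000000, whose mean methylation difference was -0.191 points. Inside Tnc 47 listed cytosines averaged -0.205 points with 1 called lower, and inside Vcan 56 averaged 0.898 with no call. Inside Edil3 67 averaged 2.97, with 3 called higher and 1 lower. Inside Col11a1 54 averaged -2.02 with 1 called lower, and inside Col22a1 95 averaged -0.0051, with 4 called lower and 1 higher. The bodies of these genes thus differed in both directions.

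Genes of secreted factors and of an insulin receptor adaptor were called in both directions. Hgf, whose product drives migration and growth through the Met receptor, rose by 1.21 (SE 0.23, adjusted p 1.60e-05), per the authors' deposited table. Pdgfc at chr3:81036416-81214040, for a ligand of platelet-derived growth factor receptors, fell by 0.67 (SE 0.18, adjusted p 0.00552), per the authors' deposited table. Grb14 at chr2:64912476-65022766, the gene of that adaptor, fell by 0.94 (SE 0.24, adjusted p 0.00194), per the authors' deposited table. Within 1000 bp of the ends of Pdgfc and Grb14, 54 and 53 cytosines were listed with means of -0.498 and 0.799 points and 1 call each. None was listed at the ends of Hgf.

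Interferon-inducible genes of a chromosome 1 cluster gave 3 of the 12 rises. Ifi205 at chr1:174011998-174031755 rose by 2.70 (SE 0.39, adjusted p 8.65e-10), per the authors' deposited table. Its mean normalized count there was low, 59.8, against a median of 948 over all tested genes. Ifi202b at chr1:173962569-173982844 rose by 1.19 (SE 0.26, adjusted p 0.000150) and Mnda at chr1:173896339-173913087 by 1.08 (SE 0.27, adjusted p 0.00209), per the authors' deposited table. Members of this family resemble each other in sequence, so the assignment of reads to each is not certain. Of their relatives in the same megabases, Ifi204 had 0.60 (adjusted p 0.0939), Ifi203 0.50 (adjusted p 0.245) and Aim2 -0.79 (adjusted p 0.186), per the authors' deposited table. The megabase of Ifi202b and Mnda, chr1:173000001-174000000, averaged -3.78 points over 183 cytosines, of which 79 were the cluster in Cadm3 and Aim2, and the 104 others averaged -2.20. The next megabase, with Ifi205, averaged -0.158 points over 160 cytosines.

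Apob at chr12:7977629-8016839, the gene of the main protein of low-density lipoprotein, rose by 2.06 (SE 0.39, adjusted p 6.70e-06), per the authors' deposited table. Its mean normalized count there was also low, 99.7. Vwa5a at chr9:38718268-38743337 rose by 0.85 (SE 0.20, adjusted p 0.000658) and Pcdh18 at chr3:49743291-49757383 by 0.63 (SE 0.19, adjusted p 0.0114), per the authors' deposited table. The RNA 4930431P03Rik at chr14:44954900-44961307 fell by 1.33 (SE 0.38, adjusted p 0.00890), per the authors' deposited table. The megabases of called genes had means from -3.78 points, for that of Ifi202b and Mnda, to 1.52, for that of Pcdh18.

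**Figure D5:**
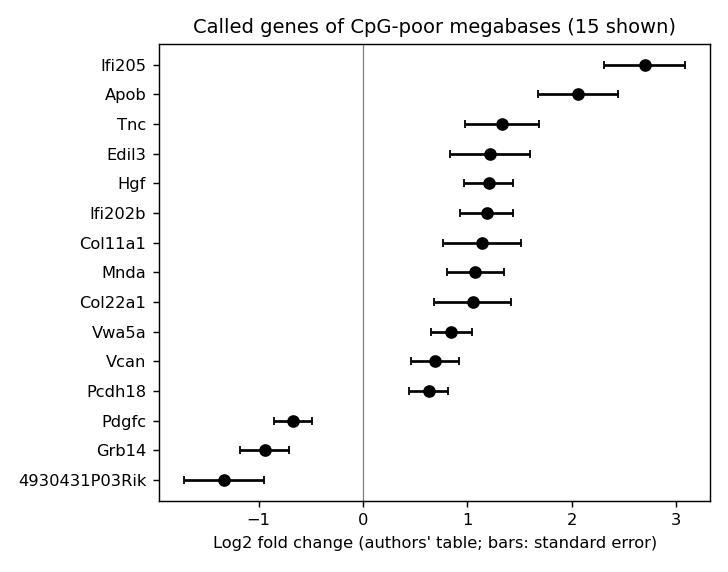
Log2 fold change (horizontal axis) with its standard error (bars) from the authors' table for 15 of the 16 genes of CpG-poor megabases with an adjusted p under 0.05. The 12 that rose run from 0.63 for Pcdh18 to 2.70 for Ifi205, and the 3 shown that fell from -0.67 for Pdgfc to -1.33 for 4930431P03Rik.

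Among 29 genes of the nuclear lamina, of heterochromatin and of methylation upkeep, wherever they lie, 1 rose, 4 fell and 24 were not called. Over all tested genes 6.15% rose and 4.74% fell, and counts this small in a list of 29 were not tested against those shares. The median log2 fold change of the 29 was -0.19, against -0.0027 over all tested genes, per the authors' deposited table. Hells, a remodeller that aids maintenance of methylation, fell by 1.09 (SE 0.20, adjusted p 6.91e-06), per the authors' deposited table. Rif1, whose product takes part in setting the timing of late replication, fell by 0.78 (SE 0.19, adjusted p 0.00166), per the authors' deposited table. Suv39h2, for a histone H3 lysine methyltransferase, fell by 0.97 (SE 0.30, adjusted p 0.0187), and Banf1, whose product links chromatin to the nuclear envelope, by 0.61 (SE 0.18, adjusted p 0.0119), per the authors' deposited table. Tet1, which encodes an oxidase of 5-methylcytosine, rose by 0.74 (SE 0.23, adjusted p 0.020), per the authors' deposited table. Dnmt1 and Uhrf1 had -0.45 (adjusted p 0.309) and -0.67 (adjusted p 0.194), and the lamin genes Lmna, Lmnb1 and Lmnb2 had -0.34, -0.19 and -0.43 with an adjusted p of at least 0.415, per the authors' deposited table. Whether these changes bear on the methylation of CpG-poor megabases was not tested.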

How the data were processed

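RRBS and RNA-seq of 2 control and 2 14-3-3ε clones each were analysed from 1 table per assay. Trim Galore, Bismark, Bowtie2, methylKit, TopHat2, HTSeq and DESeq2 and build mm10 are named in the submitters' processing notes; no version, role or setting is recorded there. The authors deposited, per cytosine, 3 values: p-value, q-value, and the percent methylation of one group less that of the other. For each gene the authors deposited a mean level, a signal under the header DESeq2 gives to the mean normalized count, a log2 fold change with its standard error, a score (their ratio), a p-value and an adjusted p-value, per the file headers.

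After removal of 253 duplicate lines, 2361680 cytosines remained, and differences were averaged without weights per megabase. Sequencing depth is unknown here, and intervals that need it are left out. Calls used the authors' q or adjusted p under 0.05. Of 24062 gene symbols 22549 matched a RefSeq symbol (GRCm38.p6) and 1352 a single synonym, and genes were placed by midpoint. Named were the 6 lowest and 6 highest megabases, the 4 clusters with most calls in each direction, and up to 12 called genes in each direction, which took in all 16, of which 1 is counted but not reported here; the 4 promoters and the windows named for their means were chosen after their values were seen. Families were found by the start of their symbol. Members, lists and rules were chosen with earlier results of these data known. Python 3.11.15 and pandas 2.3.3 were used, and the averaging was tested on simulated data.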

Additional observations from a re-analysis of the deposited data

How the results depend on the processing

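The mean of CpG-poor megabases, their share below 0 and their gap to cytosine-rich megabases kept their direction under each alternative run. Of 47 recomputed values 32 stayed within the limits set (1.5 times for means and counts, the exact 95% binomial interval for the share) and 15 moved. With the median of a megabase's cytosines in place of the mean, the mean over megabases was -0.98 points and the share below 0 was 79.3%. With clusters averaged first, the share was 80.5% and the gap -0.757 points. The remaining alternatives, among them shifted bins and other limits for either class, put the gap between -1.34 and -0.95 points. Those on local density, genes, differences of 0 and megabases without a tested gene were chosen after seeing the data.

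Lower and higher calls numbered 1076 and 389 at q under 0.01, and 749 and 285 with at least 25 points required. They numbered 121 and 39 in megabases of 20 or more and under 100 cytosines, and 4213 and 2043 at 100 or more and under 300, sets of other sizes. Genes that fell numbered 7 at an adjusted p under 0.1 and 2 with at least a 2-fold change. With bins shifted by 500 kb they were 0 of 60 tested genes by the authors' DESeq2 table (5 at an unadjusted p under 0.05), and 11 rose. No replicate could be left out, and no paired analysis was possible because the tables hold no value per clone.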

Other observations

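The 12 autosomal megabases with under 50 listed cytosines, poorer still than those described, held 331 cytosines. Of these, 7 were called lower (2.11%) and 3 higher (0.906%), against 2.83% and 1.92% over all cytosines listed. The share of lower calls was below the 4.26% seen at 50 to 199 listed cytosines. Lower calls outnumbered higher ones 2.33 to 1, against 2.44 to 1 at 50 to 199. With 10 calls in all, neither the shares nor the ratios can be compared firmly. The means of the 12 megabases averaged -1.48 ± 2.02 points (SD, n = 12 megabases), with 9 below 0.

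In promoter windows, where the neighbouring bases are known, CpGs of CpG-poor megabases flanked on both sides by A or T averaged -3.87 points over 37 cytosines (2 called lower), those with A or T on 1 side -0.172 over 223 (5 lower, 7 higher), and those flanked on both sides by C or G -1.31 over 459 (15 lower, 7 higher). In cytosine-rich megabases the values were -0.114 over 11221, -0.173 over 57975 and -0.161 over 107509 cytosines. The values of CpG-poor megabases follow no order by flanking base, and the 37 cytosines are too few to compare.

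At CpGs of CpG-poor megabases with both strands listed, the strands correlated at r = 0.35 over 19621 CpGs that share clones and libraries. Both strands were called lower at 287 CpGs (1.46%) and both higher at 96 (0.489%), and at 2 the calls were opposite. In cytosine-rich megabases r was 0.39 over 739042 CpGs, with both strands lower at 7215 (0.976%), both higher at 5158 (0.698%) and opposite calls at 113.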
